A study of Mus musculus with 10 samples.

Results

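Huwe1 was depleted from C2C12 cells at different stages of muscle differentiation, and the RNA of the early and late depletion states was compared gene by gene. C2C12 is a mouse myoblast line that exits the cell cycle, fuses and forms myotubes when serum is withdrawn. In the early state, lentivirus carrying an shRNA against Huwe1 was introduced into myoblasts, the cells were selected with puromycin and then differentiated, and RNA was collected at day 6. In the late state, concentrated lentivirus was added on day 4 of differentiation, puromycin followed, and RNA was collected at day 8. Each state has 2 libraries, made with a different hairpin each, so that 4 of the 10 samples of the series enter the comparison. The authors pooled the 2 libraries of a state into 1 column of FPKM, which is fragments scaled to transcript length and to library size. A gene therefore has 1 value per state, and no difference given here has a replicate check, a standard deviation or a p-value. The day 6 control is labelled wildtype and the day 8 control non-targeting RNA, with 1 library each, although the header of the day 8 table also calls its control wt. All of the cells are 1 line, grown without the other cell types of a muscle. Collection day, the stage at which Huwe1 was depleted, the time since infection, the hairpins, the kind of control and the table in which values were normalized all differ between the states and cannot be told apart.

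Huwe1 is a very large HECT-type E3 ubiquitin ligase, which marks proteins for degradation by the proteasome. The study examined it as a ligase of TBP, the protein that recognizes TATA boxes, with USP10 as the opposing deubiquitinase. Differentiation of myoblasts runs through the basic helix-loop-helix factors MyoD and myogenin, then the sarcomere genes, while some cells remain mononucleated as Pax7-positive reserve cells. Proteins of the Id family and the Notch pathway hold cells back from this programme.

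The 4 hairpin targets are shown because, as labelled, the states share none of them. Each sequence was searched in the GENCODE transcripts of GRCm38 and matched Huwe1, with no match in another gene at 0 or 1 mismatches. Each is given 5′ to 3′ as the target on the Huwe1 mRNA.
Early, replicate 1: gggaacctgtgattcgaga
Early, replicate 2: gagaagaggacaactagta
Late, replicate 1: gcactcttcataactcacttt
Late, replicate 2: gcactgctcatcaaagatgtt
The first early target lies in the coding sequence in exon 32 of 83, at chrX:151883185-151883203 on the plus strand. The second early target crosses the junction of exons 8 and 9, also in the coding sequence, with 9 bases at chrX:151852544-151852552 and 10 at chrX:151853399-151853408. The first late target lies in exon 83 after the stop codon, in the 3′ UTR, at chrX:151934876-151934896. The second late target is coding and crosses from exon 19, chrX:151862387-151862404, to exon 20, chrX:151862652-151862654. By the sample labels, the early hairpins were also used in the day 0 myoblast libraries and the late pair only in the day 8 libraries. The methods of the study list the late pair alone, for myoblasts and myotubes both, so which hairpins the early libraries carried rests on the labels.

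Huwe1 mRNA was present in both states. It stood at 21.9 FPKM in the early knockdown against 35.2 in the day 6 control, and at 33.0 FPKM in the late knockdown against 55.5 in the day 8 control. The knockdown columns thus held 62.2% and 59.6% of the Huwe1 level of their own controls, and the remaining level was higher in the late state. The myoblasts from which the early state was grown, also infected with the early hairpins, had 15.2 FPKM against 38.3 in their control. Day 0 and day 6 knockdown values came from separate tables.

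The tables were joined on the gene symbol, which gave 23417 genes. The comparison keeps the 11859 genes with at least 1 FPKM in either knockdown column and leaves out 11558. For each gene the log2 difference, day 8 minus day 6, was taken after adding 0.01 FPKM to both values, which slightly understates differences of low genes, and the median of the 10572 genes that reached 1 FPKM in both, 0.11, was subtracted. From the steps between low FPKM values, and if each pooled column is the mean of its libraries, the early column rests on an estimated 31000000 and 19400000 fragments and the late column on 18100000 and 14100000. The controls were estimated at 30000000 fragments at day 6 and 18200000 at day 8. At 1 FPKM over 2 kb of transcript this is about 101 fragments in the early column and 64.4 in the late column.

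The late knockdown had 1538 genes at least 2-fold higher than the early knockdown, 13.0% of those kept, and 1723 at least 2-fold lower, 14.5%. In bulk RNA, fewer cells of a type and less RNA per cell cannot be told apart. At 8-fold or more, 292 genes were higher (2.46%) and 421 lower (3.55%). Higher genes were thus 47.2% of those 2-fold apart, but 62.1% when both columns were scaled to the same summed FPKM, which moved all genes by 0.24 on the log2 scale and gave 2145 higher and 1308 lower. The direction of a list whose median lies between -0.24 and 0 therefore depends on the scaling. The same calculation between the control columns, over 11525 genes, gave 1491 higher at day 8 (12.9%) and 754 lower (6.54%). A yardstick for differences between tables comes from the 2 control columns of day 6, deposited in separate tables. Both file headers name the same library but the values differ, so that whether they are 1 library processed again or 2 libraries is not known. Between them 1435 of 11459 genes were at least 2-fold higher (12.5%) and 849 lower (7.41%) in the column of the USP10 overexpression table, which was estimated at 7840000 fragments. Unless stated, day 6 control values and control differences in this text use the column normalized with the early knockdown. For single genes the other column could lie far from it, as for B2m (136 and 402 FPKM), or close, as for Nrap (194 and 186).

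Abundant genes leaned toward the early state. Of the 774 genes with a mean of at least 100 FPKM, 158 were at least 2-fold lower in the late state (20.4%) and 62 higher (8.01%). Among the 3208 genes with a mean under 5 FPKM the shares were 19.9% and 22.7%. The robust SD of the log2 difference was 0.73 for the knockdown columns, 0.58 for the control columns and 0.56 for the 2 day 6 controls.

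**Figure D1:**
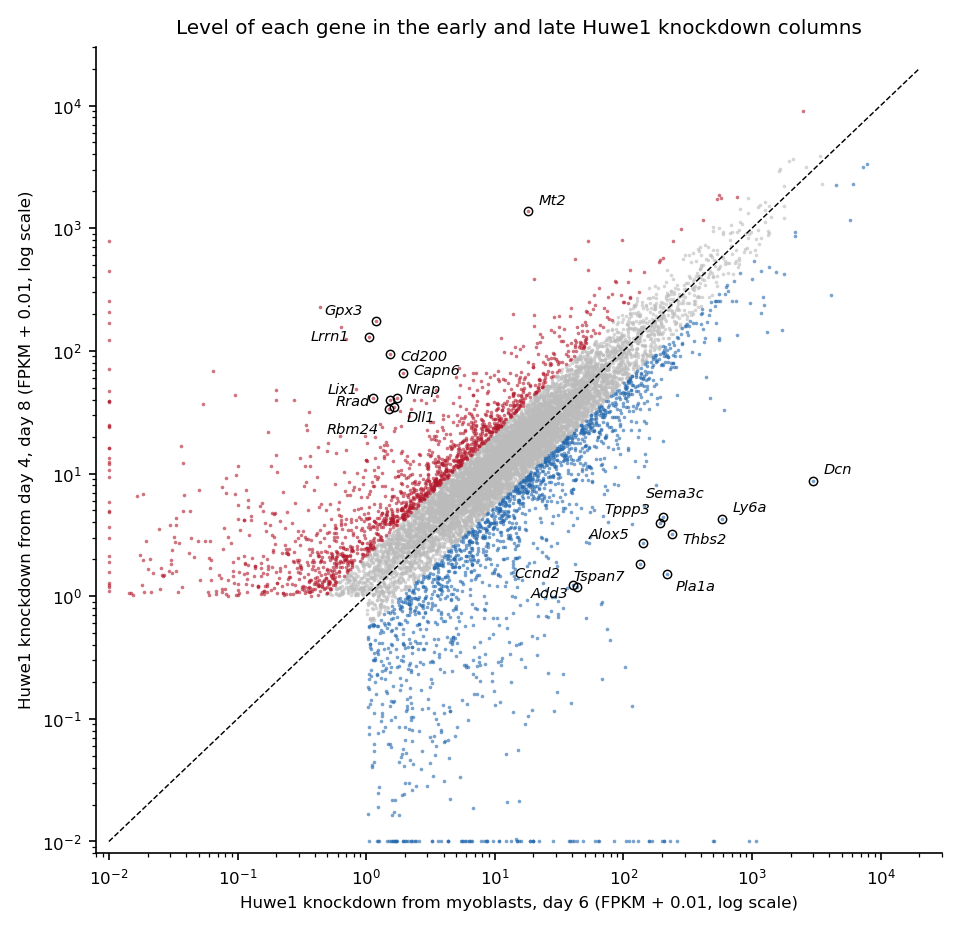
Level of each of the 11859 kept genes in the early knockdown column (x axis, FPKM + 0.01, log scale) and in the late knockdown column (y axis, same scale), with 1 point per gene, genes at least 2-fold higher in the late column in red and lower in blue; the dashed line marks equal levels. The 10 genes with the largest differences in each direction among those with at least 10 FPKM in 1 column, 1 FPKM in both and a locus of 500 bases are circled and named, with Dcn at 2987 and 8.75 FPKM and Mt2 at 18.2 and 1379 FPKM.

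Over all genes, the late knockdown was closer to its own control than the early knockdown was. Among genes that reached 1 FPKM in both columns of a pair, 12.4% were 2-fold apart between the late knockdown and the day 8 control, with a median absolute log2 difference of 0.37. Between the early knockdown and the day 6 control 23.3% were 2-fold apart, with a median absolute difference of 0.50. The early and late knockdown columns differed at 20.5% of genes (0.49), and the 2 controls of day 6 and day 8 at 14.0% (0.39). The 2 control columns of day 6, normalized separately, differed at 13.9% (0.38). The early knockdown column was nearest to the column of cells that overexpress USP10 at day 6, from which 6.54% of genes were 2-fold apart (0.28). These are distances between single columns, those within a table share its normalization, and no test of their order was possible.

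The control columns span the same days without depletion. Across the 10034 genes with at least 1 FPKM in all 4 columns, the knockdown and control differences had a Pearson r of 0.18 and a Spearman rho of 0.23, given as a description, since both differences span the same 2 tables and genes are not independent. Of the 1538 genes higher in the late knockdown, 334 (21.7%) were also 2-fold higher in the day 8 control, where 12.9% of all genes were, 100 were 2-fold lower there and 852 differed less than 2-fold between controls. Of the 1723 lower genes, 248 (14.4%) were also lower in the day 8 control, where 6.54% of all genes were, 273 (15.8%) were higher there and 805 differed less than 2-fold.

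**Figure D2:**
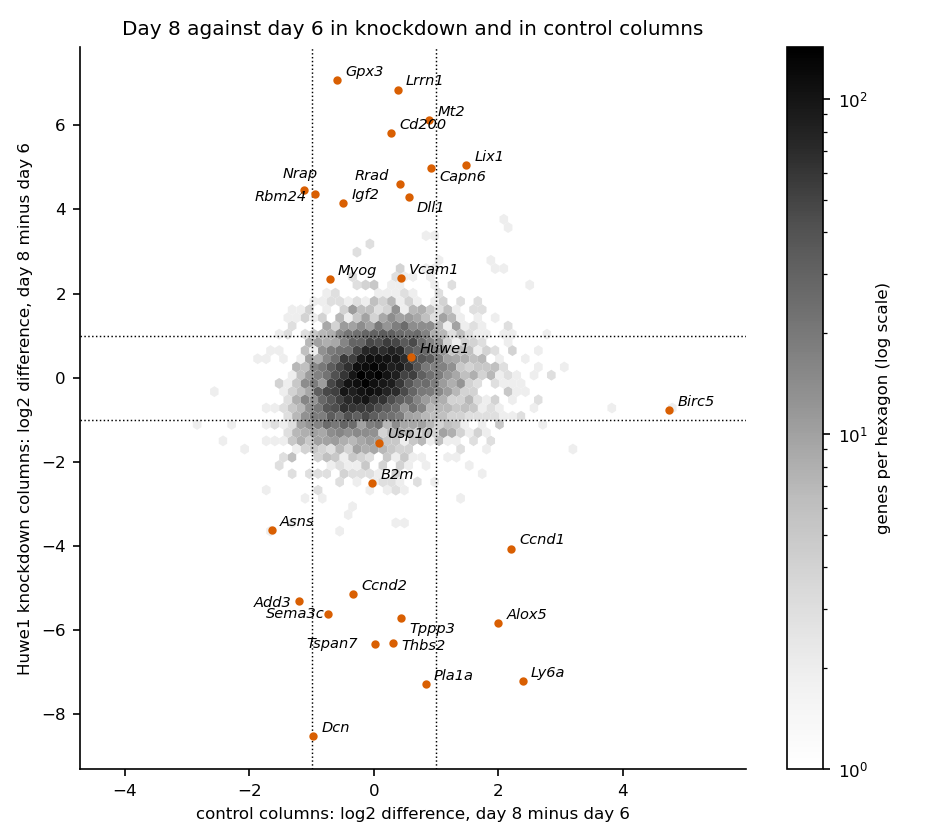
Log2 difference, day 8 minus day 6, between the control columns (x axis) and between the Huwe1 knockdown columns (y axis) for the 10034 genes with at least 1 FPKM in all 4 columns; the grey scale is the number of genes per hexagon on a log scale and dotted lines mark 2-fold. Some named genes with large knockdown differences, such as Dcn (-8.52) and Gpx3 (7.08), lie within 2-fold on the control axis (-0.98 and -0.59). Dcn had 50.3 FPKM in the other day 6 control column, not drawn here, against 4.19 at day 8. Birc5 differs between the controls (4.74) more than between the knockdowns (-0.76).

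Among genes with at least 10 FPKM in 1 knockdown column and 1 FPKM in both, the 10 furthest below their early level had 40 FPKM or more in the early knockdown and under 10 in the late one. Decorin (Dcn, chr10:97479500-97518162), a small proteoglycan that binds collagen and TGF-beta, had 2987 FPKM in the early knockdown and 8.75 in the late knockdown, a log2 difference of -8.52. The controls had 7.94 and 4.19 FPKM. The day 6 USP10 column had 3037 beside 50.3 in its own control, so that the early knockdown and USP10 columns stood far above the others. Pla1a, a phospholipase, had 218 and 1.51 FPKM (-7.28), and Ly6a, the surface protein Sca-1 of progenitor cells, 584 and 4.28 (-7.20). Thrombospondin 2 (Thbs2), an antiangiogenic matricellular protein, had 238 and 3.22 FPKM (-6.31) against 4.12 and 5.27 in the controls. The other 6 of the 10 lowest were Tspan7 (135 and 1.81 FPKM), Alox5 (142 and 2.69), Tppp3 (194 and 3.97), Sema3c (203 and 4.43), Add3 (43.6 and 1.17) and cyclin D2 (Ccnd2, 40.5 and 1.23), with log2 differences from -6.32 to -5.14. In 9 of the 10 the late level lay below the day 8 control, Dcn being the exception, and Alox5, the 5-lipoxygenase of leukotriene synthesis, was the furthest below it (75.2 FPKM in that control). The early level of every one of the 10 lay above the day 6 control.

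Of the 10 genes furthest above their early level under the same limits, 6 were within 2-fold of the day 8 control in the late state. Glutathione peroxidase 3 (Gpx3, chr11:54902854-54910382), a secreted antioxidant enzyme, had 1.19 FPKM in the early knockdown and 175 in the late knockdown, a log2 difference of 7.08, with 89.7 and 61.8 in the controls. Lrrn1, a leucine-rich repeat membrane protein, had 1.03 and 130 FPKM (6.85) against 62.7 and 84.6 in the controls, and the surface glycoprotein Cd200 had 1.52 and 93.4 (5.82) against 75.4 and 94.9. Metallothionein 2 (Mt2, chr8:94172618-94173567) was different, since its 1379 FPKM in the late state stood above both controls (49.8 and 96.2) and its 18.2 FPKM in the early state below them (6.13). Lix1 (1.13 and 41.1 FPKM), Capn6 (1.93 and 66.0), the small GTPase Rrad (1.52 and 40.0), the actin-organizing protein Nrap (1.74 and 41.3), the RNA-binding protein Rbm24 (1.51 and 33.4) and the Notch ligand Dll1 (1.64 and 34.8) completed the 10, with log2 differences from 5.06 to 4.29. All 10 lay below the day 6 control in the early state.

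**Figure D3:**
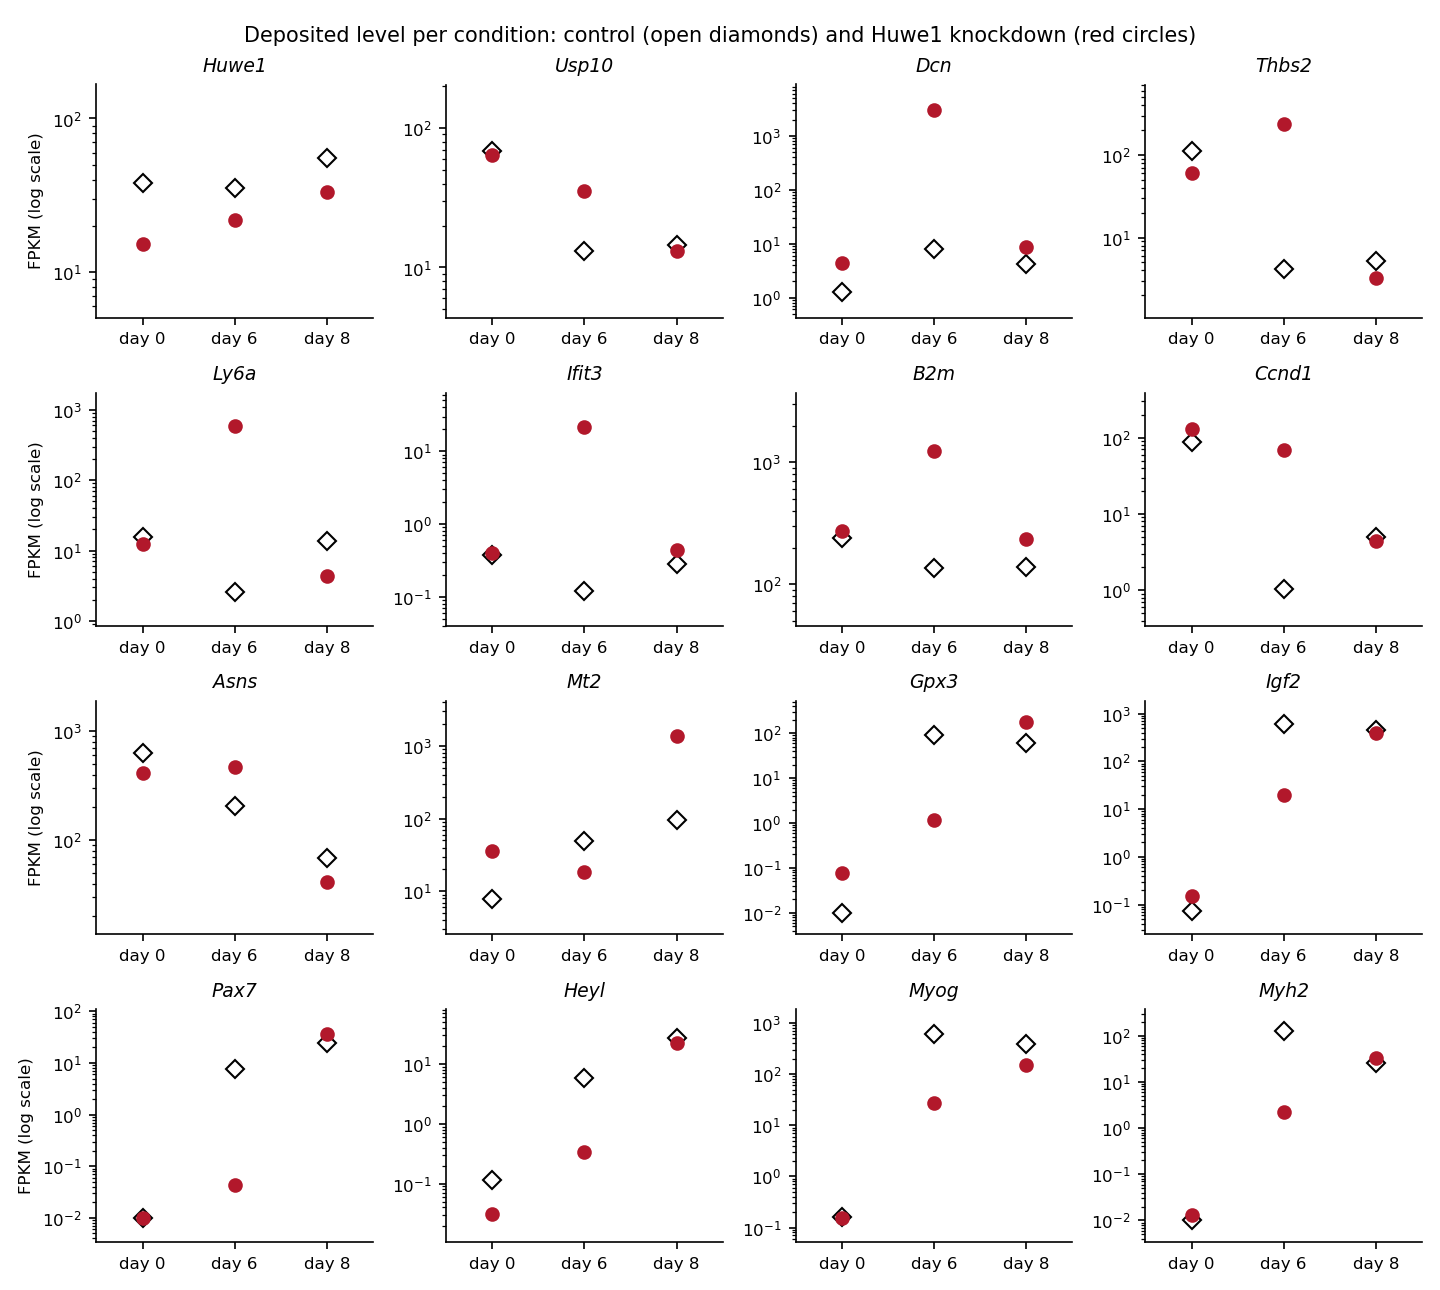
Deposited FPKM of 16 genes on log scales at day 0, day 6 and day 8 in control (open diamonds) and Huwe1 knockdown (red circles) columns, with 1 value per condition and no error bars. Values under 0.01 are drawn at 0.01 so that values of 0 can be shown. In most panels the day 6 circle stands far from the day 6 diamond while the day 8 pair lies close together, as for Igf2 with 613 and 20.2 FPKM at day 6 and 452 and 388 at day 8; Mt2 is an exception with 96.2 and 1379 at day 8.

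Genes named by the study differed less. Usp10 had 35.4 FPKM in the early knockdown and 13.1 in the late knockdown (-1.54), with 13.2 and 14.5 in the controls. Tbp had 14.6 and 22.0 FPKM (0.48), and its controls 10.8 and 15.9. The other day 6 control column had 27.8 FPKM of Tbp. Of the 25 kept members of a list of TBP, TFIID, initiation factor, Huwe1 and Usp10 genes, 1 was 2-fold higher and 3 lower, with a median of 0.16, where 13.0% and 14.5% of all genes were. The higher one was the TFIID subunit Taf7 (1.75 and 9.59 FPKM), and the lower ones were Usp10, the TFIIA subunit Gtf2a2 (49.2 and 18.4) and the TBP relative Tbpl1 (19.8 and 8.94). Cdc6, a replication licensing factor, was under 1 FPKM in both states (0.343 and 0.275) and was not kept. Gapdh, a glycolytic enzyme, had 389 and 654 FPKM (0.64).

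Muscle identity was present in both states. Of 9 defining muscle genes, all were above 25 FPKM in both knockdown columns, among them Des, the muscle intermediate filament protein, with 1083 and 604 FPKM, Acta1, skeletal actin, with 932 and 1325, and Chrna1, a subunit of the acetylcholine receptor.

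Myogenin and MyoD mRNA stood higher in the late state, and the other regulators of muscle were mixed. Myogenin (Myog), the factor that commits myoblasts to differentiate, had 27.1 FPKM early and 148 late (2.34) against 619 and 392 in the controls. Myod1, which acts before it, had 62.7 and 107 FPKM (0.67), while Mef2c, a MADS-box factor that acts with the MyoD family, had 10.3 and 3.99 (-1.47) against 97.8 and 48.6 in the controls. In the list of 13 kept myogenic regulators 3 were 2-fold higher and 3 lower (23.1% each, against 13.0% and 14.5% of all genes), with a median of 0.56. The higher ones besides Myog were Eya4 (5.12 and 29.9 FPKM) and Six4 (3.62 and 12.4), a coactivator and a homeodomain factor that act upstream of the MyoD family. Myf5, an early myoblast factor, was lower (18.5 and 8.14 FPKM), as was the cofactor Vgll2 (15.1 and 0.0458). Vgll2 passed 1 FPKM in the early column alone, which fixes its direction.

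Sarcomere gene lists differed among themselves, beside 13.0% of all genes higher and 14.5% lower. The list of Z-disc and M-band genes had 13 of 26 kept members 2-fold higher in the late state and 4 lower, with a median of 0.94, against 0.01 over all genes. The median of this list between the control columns was -0.71. Examples are alpha-actinin 2 (Actn2, 4.30 and 29.7 FPKM), which crosslinks actin at the Z-disc, the filamin Flnc (87.9 and 362), Pdlim3 (29.1 and 189) and the giant titin (Ttn, 9.42 and 21.9). Ankyrin repeat protein Ankrd1 (1363 and 480 FPKM) and the Z-disc proteins Myoz2 (22.8 and 8.56) and Tcap (5.31 and 2.00) were lower. The control median of this list rests on 1 of the 2 day 6 control columns. With the other, Actn2 (80.4 FPKM at day 6, 107 at day 8), Pdlim3 (306 and 388) and Ttn (51.9 and 96.0) were higher at day 8. Ankrd1 (3116 and 1134) and Myoz2 (167 and 68.2) were lower there, and members in each direction were not counted. Thin filament genes were balanced, with 3 of 19 higher, 2 lower and a median of -0.05. Nebulin (Neb), which spans the thin filament, had 30.2 and 85.2 FPKM, whereas the fast troponin I gene Tnni2 had 556 and 126.

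Of the myosin heavy chains named by fiber type, the IIa, IIx, perinatal and slow chains were higher late, and the embryonic and IIb chains had lower levels. Myh2, the IIa heavy chain, had 2.21 FPKM early and 33.3 late (3.80) against 126 and 25.3 in the controls. The other day 6 control column had 24.8 FPKM of Myh2. Myh7, the slow chain, had 6.78 and 65.7 (3.17), and Myh8, the perinatal chain, 7.22 and 38.8 (2.32). Myh1, the IIx chain, had 38.2 and 192 FPKM (2.21). Myh3, the embryonic chain, had 86.2 and 45.4 FPKM (-1.03) although its controls had 616 and 1218, and Myh4, the IIb chain, had 5.53 and 3.10 (-0.94). In all, 6 of 11 kept heavy chains were higher (54.5%) and 2 lower (18.2%), against 13.0% and 14.5% of all genes. Their median was 1.91, which was 0.18 over the 9 that reached 1 FPKM in both columns. Of 13 light chain and related genes 3 were higher and 3 lower, with a median of -0.27. The most abundant of them, Mylpf, the fast regulatory light chain, had 2146 and 861 FPKM, and Myl2, the slow one, 94.9 and 14.4. The nonmuscle chain Myh9 was the most abundant of the heavy chain list, with 539 and 658 FPKM. Without Myh9 and the nonmuscle chains Myh10 and Myh14, a cut made after the values were seen, the heavy chains summed to 148 FPKM early and 388 late. The day 6 control summed to 3490 and the day 8 control to 2510. Myh1 gave 2029 of the 3490 and had 234.5 FPKM in the other day 6 control column, whose sum was not computed. The light chain list summed to 5220 and 3000 FPKM, against 17865 and 11006 in the controls. Both sums stood below the controls in both states.

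**Figure D4:**
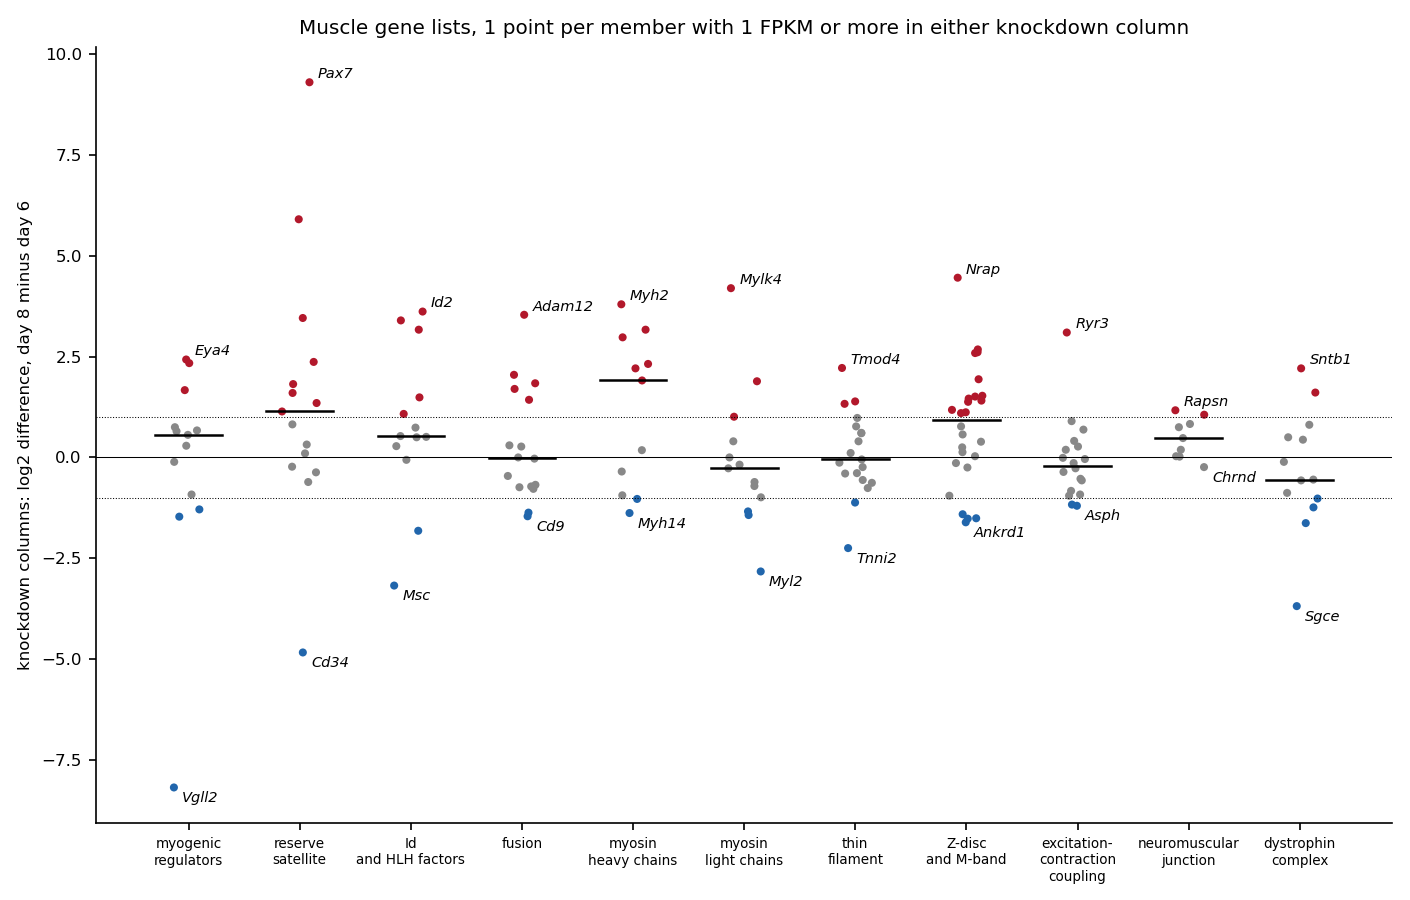
Log2 difference, day 8 minus day 6, between the Huwe1 knockdown columns (y axis) for members of 11 muscle gene lists with at least 1 FPKM in either column (x axis, 1 point per gene, with sideways scatter for visibility), red at or above 1 and blue at or below -1; black bars are list medians and the lowest and highest member of each list is named. The Z-disc and M-band list (median 0.94) and the myosin heavy chains (1.91) lie mostly above 0, while thin filament genes (-0.05) and fusion genes (-0.01) centre on it. Over the 9 heavy chains at 1 FPKM in both columns the median was 0.18.

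Other muscle lists were compared with the 13.0% of all genes that were higher and the 14.5% that were lower. Excitation-contraction coupling had 1 of 18 members higher and 2 lower (median -0.20), the neuromuscular junction 2 of 9 higher and 0 lower (0.48) and cell fusion 5 of 16 higher (31.2%) and 2 lower (-0.01). Within the fusion list the metalloprotease Adam12 (1.00 and 12.6 FPKM), the caveolin Cav3 (3.19 and 14.3) and N-cadherin (Cdh2, 34.2 and 119) were higher. The dystrophin complex list had 2 of 13 higher and 4 lower (30.8%, median -0.55), with epsilon-sarcoglycan (Sgce) at 151 and 12.6 FPKM and the syntrophin Sntb1 at 13.2 and 65.6. Ubiquitin ligases and atrophy genes had 6 of 25 higher (24%) and 1 lower (0.35), including MuRF1 (Trim63, 6.78 and 23.7 FPKM), which ubiquitinates sarcomere proteins.

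Genes of the reserve and satellite cell list were higher in the late state, with 8 of 15 kept members at least 2-fold higher, 1 lower and a median of 1.14. Among all genes 13.0% were higher and 14.5% lower. Over the 12 members of the list that reached 1 FPKM in both columns the median was 0.57. Between the control columns the list median was 1.21, so that these genes were also higher at day 8 without depletion. Pax7, the defining factor of satellite cells, had 0.0438 FPKM early and 36.7 late, with 7.54 and 24.7 in the controls. The Notch targets Heyl (0.337 and 22.4 FPKM), Hey1 (0.844 and 10.1) and Hes1 (13.1 and 35.9) and the receptors Notch1 (2.07 and 7.91) and Notch3 (4.72 and 11.2) were all higher, as was the adhesion molecule Vcam1 (23.2 and 130). The exception was Cd34, a surface sialomucin of progenitor cells, with 145 and 5.45 FPKM. Pax7, Heyl and Hey1 passed 1 FPKM in the late column alone, which fixes their direction. Id1 (5.40 and 52.5 FPKM), Id2 (1.65 and 22.0) and Id3 (11.2 and 127), which sequester the partners of MyoD, had log2 differences from 3.17 to 3.62 against 0.40 to 0.87 in the controls. The bHLH repressor Msc had 5.28 and 0.618 FPKM. In the Id and helix-loop-helix list 5 of 13 were higher and 2 lower, with a median of 0.53.

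Interferon response genes were lower in the late state. Of 35 kept members, 27 were at least 2-fold lower (77.1%) and 0 higher, with a median of -2.19, against 14.5% and 0.01 over all genes. Only 18 of the 35 reached 1 FPKM in both columns, the other 17 having passed through the early column, and the median of the 18 was -1.28. Between control columns, where 15 members passed 1 FPKM, the median was 0.47. Ifit3, an antiviral protein induced by interferon, had 21.2 FPKM early and 0.442 late, with 0.119 and 0.282 in the controls. Ifit1 had 15.4 and 0.401 FPKM, Ifi27l2a 54.4 and 2.69, the transcription factor Irf7 7.25 and 0.780 and the ubiquitin-like protein Isg15 22.3 and 6.62. The early column stood far above the controls in each of them, and the USP10 column at day 6 was also high, with 12.4 FPKM of Ifit3 and 13.3 of Isg15. Ifitm3, the most abundant, had 256 and 73.8 FPKM against 105 and 129 in the controls.

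The promoters of Isg15, Ifit1 and Ifit3 are shown with the interferon element in capitals, since the list moved together. Each is the 250 bases before the RefSeq start site in GRCm38.p6, read 5′ to 3′ on the strand of the gene, and capitals mark matches on either strand to TTTC, any 2 bases and TTTC.
Isg15, chr4:156200819-156201068, minus strand: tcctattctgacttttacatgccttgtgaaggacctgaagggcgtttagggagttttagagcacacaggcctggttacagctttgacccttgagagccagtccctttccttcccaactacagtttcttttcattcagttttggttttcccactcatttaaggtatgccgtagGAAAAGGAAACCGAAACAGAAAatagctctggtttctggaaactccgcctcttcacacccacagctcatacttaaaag
Ifit1, chr19:34640639-34640888, plus strand: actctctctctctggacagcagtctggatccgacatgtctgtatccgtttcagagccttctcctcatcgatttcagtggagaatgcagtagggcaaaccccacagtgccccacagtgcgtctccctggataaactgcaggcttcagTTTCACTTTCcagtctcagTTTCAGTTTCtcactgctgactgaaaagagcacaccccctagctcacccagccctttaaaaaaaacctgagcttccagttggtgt
Ifit3, chr19:34583279-34583528, plus strand: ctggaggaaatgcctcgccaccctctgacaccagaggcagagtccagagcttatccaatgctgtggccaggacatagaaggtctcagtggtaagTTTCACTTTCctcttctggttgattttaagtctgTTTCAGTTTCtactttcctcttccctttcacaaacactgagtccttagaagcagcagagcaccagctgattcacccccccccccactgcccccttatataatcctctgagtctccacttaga
Isg15 held 3 overlapping matches on the opposite strand to the gene, and Ifit1 and Ifit3 held 2 each on the strand of the gene. Of the 25 kept interferon genes with a promoter in the table, 13 held the element (52.0%), where 2.98% of all 32851 promoters and 2.99% of kept genes with a promoter did. The share was 4.41% among genes at least 2-fold lower in the late state and 2.59% among those higher. These matches describe the letters only. The TATA box letters TATAAA, searched in the same windows on both strands, were in 12.2% of the promoters of lower genes, 9.23% of those of higher genes, 7.86% of kept genes and 12.4% of all promoters.

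Several MHC class I subunits and many chemokines had lower levels in the late state. Beta-2 microglobulin (B2m), the light chain of MHC class I, had 1242 FPKM early and 235 late (-2.51) against 136 and 139 in the controls, and the heavy chain H2-K1 had 69.0 and 17.8 (-2.06). In the MHC class I and immunoproteasome list 6 of 19 were lower, 2 higher and 11 neither, with a median of -0.40, or -0.06 over the 17 that reached 1 FPKM in both columns. The peptide transporter Tap1 was higher (1.26 and 3.88 FPKM), as was the chaperone calreticulin (Calr, 413 and 1171). The class I heavy chain H2-Q7 also had a higher late level (4.61 and 9.64 FPKM, 0.95). Of 22 kept chemokines and cytokines 14 were lower (63.6%) and 5 higher (22.7%), with a median of -1.59. Among all genes 14.5% were lower and 13.0% higher. Only 16 of the 22 reached 1 FPKM in both columns, with a median of -1.51. Ccl2, Il33 and Cxcl14 were not among the 16, and passing through 1 column alone fixes their direction. The monocyte attractants Ccl2 (24.7 and 0.962 FPKM), Ccl7 (55.2 and 4.84) and Ccl8 (61.7 and 13.2) and the alarmin Il33 (29.3 and 0.972) were among the lower, and the stromal chemokine Cxcl12 had 102 and 29.1. Higher members included eotaxin (Ccl11, 1.95 and 9.67 FPKM) and Cxcl14 (0.0275 and 12.1). Prostaglandin and leukotriene genes had 6 of 15 lower and 2 higher (-0.63).

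Markers of macrophages were low in both states. Of 13 macrophage genes measured, Cd14 and Cd68 passed 1 FPKM, and Tyrobp, Laptm5 and Emr1 were listed at 0 in both knockdown columns. The summed level of the list was 6.82 FPKM early and 4.60 late against 2.64 and 1.95 in the controls. Among 11 endothelial markers 3 passed, and the sum was 111 FPKM early and 1.61 late, of which Ly6c1, a surface antigen that interferon also induces, gave 103. Cdh5, the cadherin of endothelial junctions, had 6.83 FPKM early and 0.00868 late, while Kdr, Emcn, Tie1 and Cldn5 were listed at 0 in both columns. Of 11 neural markers 5 passed, 4 of them through the early column alone, which fixes their direction, with sums of 57.8 and 3.72 FPKM against 278 in the day 0 knockdown, and the neuron-specific Rbfox3 at 0.00530 and 0. Adipocyte markers summed to 25.7 and 10.5 FPKM over 9 genes, with Adipoq, Cfd, Lep and Plin1 at 0 in both columns. Of 7 keratinocyte and epithelial markers Krt19 alone passed (4.11 and 0.0561 FPKM), and the sums were 4.18 and 0.50. The part of these genes in the differences of the interferon, cytokine and matrix lists was not tested.

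Mesenchymal and adipogenic genes were lower in the late state in 9 of 15 kept members (60%) and higher in 2 (13.3%). Among all genes 14.5% were lower and 13.0% higher. The list median was -1.27, while its control median was 0.88. Besides Ly6a and Cd34, the lower members included lipoprotein lipase (Lpl, 130 and 9.32 FPKM), the lipid droplet protein Plin2 (102 and 43.4) and the chondrogenic factor Sox9 (20.6 and 10.1). Runx2, the osteogenic factor, was higher (5.17 and 14.4 FPKM). Proteoglycans and matricellular proteins had 16 of 33 lower (48.5%) and 9 higher (27.3%), with a median of -0.54 against 1.56 between the controls. Matrix Gla protein (Mgp), an inhibitor of calcification, had 1697 and 149 FPKM (-3.62), connective tissue growth factor (Ctgf) 260 and 43.9 (-2.68), and fibronectin (Fn1) 1176 and 446 (-1.51). Biglycan (Bgn), a close relative of decorin, moved the other way with 531 and 1726 FPKM (1.59), and its late level was near the 1714 of the day 8 control. Prelp (14.4 and 107 FPKM), a leucine-rich repeat protein of the matrix, and the growth factor relative Wisp2 (5.73 and 63.4) were also higher. The control medians of both lists rest on 1 of the 2 day 6 control columns. With the other, Dcn (50.3 FPKM at day 6, 4.19 at day 8), Mgp (227 and 40.0), Bgn (2089 and 1714) and Cd34 (27.8 and 7.22) were lower at day 8. The matrix protein Sparc (1308 and 1618) was higher there, and members in each direction were not counted.

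Collagens were higher in 9 of 21 kept members (42.9%) and lower in 4 (19%), against 13.0% and 14.5% of all genes. Their median was 0.92. The median was 0.46 over the 15 that reached 1 FPKM in both columns, and 2.63 between the controls. Col5a2 had 85.5 and 372 FPKM and Col6a2 28.8 and 144, whereas Col3a1, the most abundant, had 685 and 710 (-0.06), Col1a2 409 and 220 and Col6a3 23.9 and 6.33. The gelatinase Mmp2 (64.1 and 322 FPKM) and its activator Mmp14 (95.9 and 285) were higher in the late state, and the plasminogen activator Plau (66.6 and 11.8) and the inhibitors Timp2 (655 and 307) and Timp3 (136 and 64.4) were lower. In the list of smooth muscle genes and SRF and YAP targets 8 of 22 were lower (36.4%) and 0 higher. The median was -0.73 against 1.26 between the controls, where it rests on 1 of the 2 day 6 control columns. Actg2, smooth muscle actin, had 10.6 and 1.505 FPKM and Cyr61, a YAP target, 205 and 96.3.

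**Figure D5:**
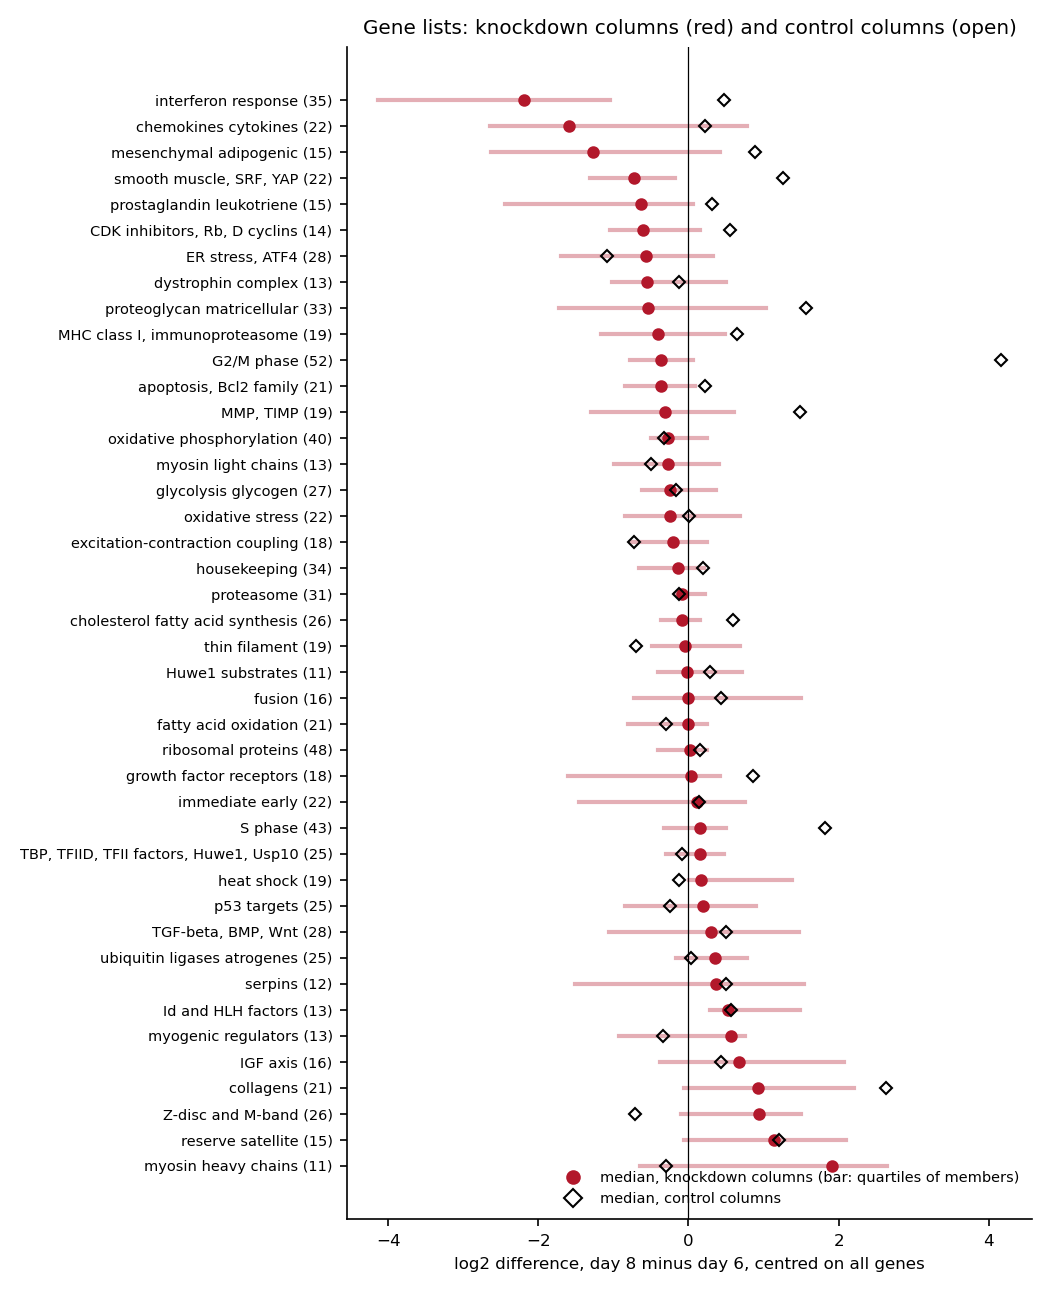
Median log2 difference, day 8 minus day 6, of each gene list with at least 10 members that reached 1 FPKM in either column of each pair (x axis) between the Huwe1 knockdown columns and between the control columns, with lists on the y axis ordered by the knockdown median and bars from the first to the third quartile of the knockdown differences over members. Among these lists interferon genes are lowest (-2.19) and myosin heavy chains highest (1.91) for the knockdowns. Both medians include members that passed through 1 column alone, which fixes their direction. Over members at 1 FPKM in both columns they were -1.28 (18 of 35) and 0.18 (9 of 11). The G2/M list stands apart in the controls (4.16) and not in the knockdowns (-0.37). Control medians use 1 of the 2 day 6 control columns.

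Proliferation genes were close between the knockdown states although they differed between the controls. Among all genes 13.0% were higher and 14.5% lower between the knockdown columns. Of 52 kept G2/M genes 2 were higher and 7 lower, with a median of -0.37, while between the controls 54 of 55 were at least 2-fold higher at day 8 (median 4.16). Survivin (Birc5), a mitotic regulator, had 5.99 and 3.80 FPKM in the knockdowns against 1.66 and 46.5 in the controls. S phase genes gave 2 of 43 higher and 2 lower, with a median of 0.16, against 1.82 and 35 of 47 higher between the controls. Cell cycle entry genes differed more. Cyclin D1 (Ccnd1), which drives the G1 kinases, had 69.1 FPKM early and 4.47 late (-4.06) against 1.02 and 4.94 in the controls, and its partner Cdk6 had 17.4 and 3.45 (-2.44). The kinase inhibitor Cdkn1c, known as p57, had 0.040 FPKM early and 7.26 late, while Cdkn1a, or p21, had 201 and 200. Cdkn1c passed 1 FPKM in the late column alone, which fixes its direction. The list of CDK inhibitors, Rb family members and D cyclins had 5 of 14 lower (35.7%) and 2 higher (14.3%). The median was -0.60 against 0.55 between the controls, where it rests on 1 of the 2 day 6 control columns.

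Metallothioneins stood out among stress genes. These small proteins bind zinc and copper and are induced by metals. Mt2 was given above, and Mt1 had 53.1 FPKM early and 786 late (3.78) against 117 and 70.5 in the controls, so that both were above every other column in the late state. Of 8 kept members of the metallothionein and zinc transport list these 2 were higher, and the zinc transporter Slc30a4 was lower (61.6 and 16.3 FPKM). Their promoters are shown with matches to the metal element, TGCACNC or TGCGCNC on either strand, in capitals, for the 250 bases before each start site in GRCm38.p6.
Mt1, chr8:94178839-94179088, plus strand: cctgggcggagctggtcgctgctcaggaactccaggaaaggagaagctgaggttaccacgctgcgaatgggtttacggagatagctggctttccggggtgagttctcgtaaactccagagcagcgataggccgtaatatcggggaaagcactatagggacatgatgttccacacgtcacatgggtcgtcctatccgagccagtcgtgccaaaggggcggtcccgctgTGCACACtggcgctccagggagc
Mt2, chr8:94172368-94172617, plus strand: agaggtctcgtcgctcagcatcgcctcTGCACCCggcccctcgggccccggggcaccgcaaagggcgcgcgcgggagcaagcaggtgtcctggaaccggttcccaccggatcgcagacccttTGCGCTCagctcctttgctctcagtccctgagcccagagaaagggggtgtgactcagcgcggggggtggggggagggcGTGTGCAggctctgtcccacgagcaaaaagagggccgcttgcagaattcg
Within these 250 bases Mt1 held 1 match and Mt2 held 3. Sequence after each RefSeq start site was not searched, so these are not counts of all metal elements of the genes. The letters were in 5 of the 7 matched genes of the list (71.4%), but they are common, with 21.4% of all promoters, 34.7% of kept genes, 35.1% of the higher genes and 32.9% of the lower genes.

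Other stress pathways were split, and their counts stand beside 13.0% of all genes higher and 14.5% lower. Of the ER stress and ATF4 list, asparagine synthetase (Asns) had 471 and 41.3 FPKM (-3.62), and Psat1 and Phgdh, both of serine synthesis, had 148 and 14.5 and 108 and 16.2. The controls of these genes also differed downward, with log2 differences of -1.64, -1.32 and -1.16. Atf4 itself had 332 and 175 FPKM (-1.03). The list had 11 of 28 lower (39.3%) and 2 higher, with a median of -0.56, and the control median was also negative (-1.09), with 15 of 28 lower. The ER-associated degradation gene Herpud1 was higher (113 and 457 FPKM). Heat shock genes had 6 of 19 higher (31.6%) and 3 lower, with a median of 0.17. The chaperones Dnajb1 (9.81 and 63.5 FPKM), Hsph1 (51.3 and 212) and the lens and muscle protein Cryab (571 and 1778) were higher, and Hspb1 (555 and 122) was lower. In the oxidative stress list 4 of 22 were higher and 4 lower (18.2% each), near the shares of all genes. Heme oxygenase (Hmox1, 21.5 and 93.4 FPKM) was above its early level and the iron storage chain Fth1 (5737 and 1164) below it. Of 25 p53 targets 6 were higher, among them the death receptor Fas (4.97 and 61.0 FPKM) and Phlda3 (39.4 and 223), and 6 lower, among them Gdf15 (19.7 and 2.68) and Pmaip1 (34.1 and 4.98).

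Growth factor genes differed in both directions. Counts of the lists here stand beside 13.0% of all genes higher and 14.5% lower. Insulin-like growth factor 2 (Igf2), an autocrine factor of differentiating myoblasts, had 20.2 FPKM early and 388 late (4.15), Igf1 had 6.33 and 49.9 (2.87) and the binding protein Igfbp4 5.29 and 73.0 (3.68), whereas Igfbp6 had 150 and 26.0 (-2.63). The IGF list had 6 of 16 higher (37.5%) and 3 lower, with a median of 0.67. In the TGF-beta, BMP and Wnt list 10 of 28 were higher (35.7%) and 7 lower (25%), with a median of 0.30. Over the 23 that reached 1 FPKM in both columns the median was 0.25. The activin antagonist follistatin (Fst) had 3.51 and 48.4 FPKM, Bmp6 0.189 and 40.0 and the secreted Wnt modulator Sfrp2 0.0544 and 68.6, while the Wnt antagonist Dkk2 had 10.1 and 0.120 and the BMP antagonist Grem1 99.1 and 22.6. The ligand Gas6 was higher (0.426 and 229 FPKM) while its receptor Axl was lower (94.3 and 24.3). Fgfr4, a receptor of differentiating muscle, had 0.263 and 40.1 FPKM. Bmp6, Sfrp2, Dkk2, Gas6 and Fgfr4 each passed 1 FPKM in 1 column alone, which fixes their direction. Among immediate early genes Klf4 had 117 and 3.85 FPKM (-5.03), and Junb had 11.7 and 97.4 (2.94), in a list with 4 of 22 higher and 7 lower.

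Housekeeping and core metabolic lists were near the median of all genes. Of 31 proteasome subunits 1 was higher and 1 lower (-0.08), of 48 ribosomal protein genes 2 and 2 (0.02), of 40 oxidative phosphorylation genes 1 and 3 (-0.27) and of 34 housekeeping genes 2 and 5 (-0.14). Cholesterol and fatty acid synthesis genes had 3 of 26 lower (-0.08). Fatty acid oxidation had 2 of 21 higher and 5 lower (0.00) and glycolysis 4 of 27 higher and 4 lower (-0.24). In the glycolysis list phosphofructokinase P (Pfkp, 72.5 and 10.4 FPKM) and lactate dehydrogenase A (Ldha, 354 and 121) were lower, and the muscle oxygen store myoglobin (Mb, 52.6 and 456) was higher. Apoptosis and Bcl2 family genes had 1 of 21 higher and 4 lower (-0.36) and proteins described as Huwe1 substrates 1 of 11 and 1 (-0.02). Serpins had 3 of 12 higher (25%) and 4 lower (33.3%), against 13.0% and 14.5% of all genes. Their median was 0.37, with members from -8.43 to 7.81, and 7 reached 1 FPKM in both columns. Growth factor receptors and their ligands had 4 of 18 higher (22.2%) and 5 lower (27.8%). Their median was 0.03, with members from -5.25 to 8.93, and 11 reached 1 FPKM in both columns, with a median of 0.14.

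Small RNA genes gave many of the most extreme differences. Of 75 microRNA genes kept, 82.7% were at least 2-fold apart, 26 higher and 36 lower, and of 72 snoRNA genes 65.3%, 13 higher and 34 lower, against 26.3% of 10630 protein-coding genes. Several were listed at 0 in 1 knockdown column, such as Snord66 (1072 and 0 FPKM), Snord99 (942 and 0), Mir3077 (0 and 447) and Snord11 (0 and 254). Levels of 0 were also common for them in other columns, as for Snord66 with 2065 FPKM in the day 6 control and 0 in the day 8 control. FPKM divides by transcript length, and what that does to genes this short was not tested. In all, 17 kept genes were listed at 0 in both columns of the day 6 table and 60 in both columns of the day 8 table.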

How the data were processed

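Directional mRNA-seq libraries of C2C12 cells (ScriptSeq v2) were mapped and compared by the authors, whose methods name Tophat and Cuffdiff; the submitters' processing notes list Bowtie2, Cuffdiff and the build mm10, with no versions. The deposited values used here are FPKM, which the authors estimated with Cuffdiff as 1 value per condition, pooling replicate libraries. Columns of the authors' own comparison (log2 fold change, test score, p-value, q-value) were not used, and the test status served as a quality limit only. There were 0 per-sample columns without a sample.

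The day 6 and day 8 tables, normalized separately, were joined on the gene symbol. Log2 differences of (FPKM + 0.01) were centred on the median of genes that reached 1 FPKM in both columns. With 1 pooled value per condition no test was run. Members of the comparison and the 49 gene lists were chosen with earlier results of these data known, and lists share some genes. The text names the 10 highest and 10 lowest genes with at least 10 FPKM in 1 column, 1 FPKM in both and a locus of at least 500 bases, up to 3 highest and 3 lowest members of each list under the same 1 FPKM limit and the most abundant members, genes the study names, and the 5 most abundant genes per direction under 0.1 FPKM in the other column. Genes beyond these, such as Pax7, Heyl, Hey1, Irf7, Ly6c1, Cdh5, Krt19, Rbfox3, Sfrp2, Bmp6, Gas6, Fgfr4, Dkk2, Cxcl14, Vgll2 and Cdkn1c, were chosen after their values were seen.

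Depth was estimated from single-transcript genes of at least 1500 bases, and fragment numbers are estimates on the scaled values. Hairpins were matched to GENCODE vM21 transcripts and promoters taken from RefSeq (GRCm38.p6), where 8758 of 11859 kept genes matched. Centring and depth estimation were tested on simulated data. Alternatives were other pseudocounts (0.1 and 1), minimums, centrings, locus lengths and status limits. Computations ran in Python 3.11.15 with pandas 2.3.3 and numpy 2.4.6, and plots were drawn with matplotlib 3.10.9.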

Additional observations from a re-analysis of the deposited data

Results flagged for a closer look

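Gene lists with at least 10 members that reached 1 FPKM in each pair of columns, whose median log2 difference, day 8 minus day 6, was at least 0.5 in size in both pairs of columns and had opposite signs, were set apart. There were 5 of them, and the difference between the pairs was not tested. The Z-disc and M-band list had a median of 0.94 between the knockdown columns and -0.71 between the control columns. The CDK inhibitor, Rb and D cyclin list had -0.60 and 0.55, the proteoglycan and matricellular list -0.54 and 1.56, the mesenchymal and adipogenic list -1.27 and 0.88, and the list of smooth muscle genes and SRF and YAP targets -0.73 and 1.26. The proteoglycan, mesenchymal and smooth muscle lists share members with other lists. The control medians rest on 1 of the 2 day 6 control columns, and medians with the other column were not computed. Whether the 5 lists would keep opposite signs with it is therefore not known. With the other column some members change direction between the controls. Examples are Ly6a (2.54 and 31.3 FPKM at day 6, 13.9 at day 8), Actn2 (278 and 80.4, 107) and Actn3 (1092 and 391, 512). Others do not, such as Nrap (194 and 186, 92.3), and their number was not counted.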

How the results depend on the processing

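The count of genes at least 2-fold higher in the late knockdown, 1538, was 963 with a minimum of 5 FPKM in either column, 989 with a minimum of 1 FPKM in both and 3445 with no minimum, and the count of lower genes, 1723, was 3354 with no minimum. The cause of the rise without a minimum lies in the construction, since 17766 genes then enter. Other settings kept both counts within 1.5 times, including an alternative chosen after seeing the data, in which genes listed at 0 in both columns of either table were left out (1521 and 1663). List medians and named genes more than 0.24 from 0 kept their sign under every setting tried that gave a value, except the keratinocyte and epithelial markers, whose median went from -6.07 (1 member) to 1.94 with no minimum. The myosin heavy chain median of 1.91 was 0.18 with a minimum of 1 FPKM in both columns. No centring, the housekeeping centring and the summed FPKM scaling moved all genes by 0.11, 0.14 and 0.24. No paired analysis was possible because the authors pooled the replicate libraries of each state and the hairpins of equal number differ between the states. For the same reason no library could be left out. Depth limits genes near 1 FPKM most, in the late column above all.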
